A study of Papio hamadryas with 72 samples.

Results

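The genes described here are the splicing factors whose symbols begin with SF3A or SF3B (SF3 family), SNRP, PRPF, SRSF or HNRNP. A rule took them by symbol alone from the annotation of a human expression BeadChip, leaving out 4 pseudogenes. The rule used no measured value, but it was chosen with earlier results of these data known. It gave 65 members of 16828 genes with a symbol, namely 9 SF3, 12 SNRP, 11 PRPF, 11 SRSF and 22 HNRNP genes, of which 26 have several probes. The chip was hybridized with RNA of juvenile baboons (Papio hamadryas) aged 4.5 years. MUN animals were offspring of mothers given a reduced ration through pregnancy and lactation, and CON animals were offspring of mothers that ate ad libitum, with 6 animals per maternal group, 3 females and 3 males in each. All 12 animals ate chow from weaning, and the right lobe of the liver, the vastus lateralis muscle and the omental fat were each biopsied in every animal before and after a 7-week challenge with HFCS, a high-fat, high-carbohydrate diet with a fructose drink, both offered ad libitum. The 72 arrays therefore form 12 groups of 6. Every HFCS biopsy came from an animal that had been biopsied on chow first, so diet cannot be told apart from time and from the first biopsy.

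Introns are removed by the spliceosome, a large machine of small nuclear ribonucleoproteins (snRNPs) that assembles anew on each intron. SNRP genes encode the Sm core proteins and the U1 and U2 specific proteins of these particles. SF3A and SF3B proteins belong to the U2 snRNP, which finds the branch point. PRPF proteins act mainly in the U4/U6.U5 tri-snRNP and in the remodelling steps that lead to catalysis. SRSF proteins (SR proteins) bind exons and mostly favour use of nearby splice sites, while hnRNP proteins coat nascent RNA and often favour exon skipping. Many of these genes are expressed in a wide range of tissues.

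A probe was kept in a tissue when its detection score exceeded 0.95 on at least 6 of the 24 arrays, and the brightest kept probe stood for its gene. By that rule 52 members were kept in liver, 48 in muscle and 53 in adipose, of 8685, 8052 and 9277 genes. There were 45 members kept in all 3 tissues and 6 in a pair of tissues. The kept probe was detected on every array for 42 members in adipose, 5 in liver and 2 in muscle, and on fewer than 12 arrays for 5, 4 and 5. The members kept in 1 tissue were HNRNPA1L2, PRPF40B and SRSF12 in liver, and HNRNPLL, SNRPA1 and SRSF10 in adipose. The 8 members kept in no tissue were HNRNPCL2, HNRNPCL3, HNRNPH3, PRPF38B, PRPF39, SF3A1, SNRPD1 and SNRPE. As the probes were designed for human transcripts, a member under the detection limit may be poorly matched in the baboon or little expressed, which cannot be told apart here. HNRNPA1, HNRNPC and their retrogene copies are close in sequence, so their probes may be shared.

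Marker genes bore out the tissue labels on nearly all arrays, and 4 arrays stood apart. The 10 hepatocyte genes summed to 90543 to 116392 signal units on 21 liver arrays. The 2 of them kept in muscle summed to 259 to 329 on all but 1 of the muscle arrays. The 9 detected myofiber genes summed to 87485 to 120662 on 23 muscle arrays, and the 9 detected adipocyte genes to 20745 to 49688 on the adipose arrays. A median correlation below 0.9 with the other arrays of the tissue marked 4 weak arrays, which were MUN replicates 4 (0.501) and 6 (0.675) on chow and MUN replicate 4 on HFCS (0.0925) in liver, and CON replicate 5 on chow (-0.0071) in muscle. The weak arrays detected 3179 to 10136 probes, against 9774 to 13453 on the other liver and muscle arrays. TTR, a major secretory product of hepatocytes, had a log2 signal of 7.09, 7.53 and 7.56 on the weak liver arrays, against 13.55 to 14.41 on the others. The 10 hepatocyte genes together summed to at least 43909 on the weak MUN chow arrays and to 5518 on the weak MUN HFCS array. All 3 weak liver arrays came from MUN males, so the liver comparisons of MUN are given with and without them. The muscle array of CON replicate 1 on chow also had a hepatocyte sum of 24746.

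In groups with a weak array, the level of each family spread less once the weak arrays were set aside. The other arrays of a tissue still differed, as the mean of the muscle SRSF members ran from 8.76 to 9.13 on them. In liver, the mean log2 signal of the 8 SF3 members was 8.09 to 8.17 on the 4 other MUN chow arrays, against 8.00 to 8.12 on the 6 CON chow arrays. It was 8.89 on the highest weak MUN chow array and 7.57 on the weak MUN HFCS array. The 17 HNRNP members averaged 8.53 to 8.64 on the other MUN chow arrays, against 8.54 to 8.67 on the CON chow arrays, while the weak MUN chow array of replicate 6 had 9.16 and the weak MUN HFCS array 7.43. The weak muscle array had the lowest SRSF mean, at 7.71 against 8.76 to 9.07 on the other CON chow arrays, but the highest PRPF mean of its group, at 7.95. Thus the weak arrays lay above the rest in some families and below them in others. The 7 detected lymphocyte genes also summed to 3194 on the weak MUN HFCS array, against 895 to 1078 on the 21 liver arrays that were not weak, and to at most 1286 on the weak MUN chow arrays. The 6 endothelial genes summed to at most 3793 among the MUN HFCS livers, against 1117 to 1714 on the 21 arrays. The part of either list in these values was not tested.

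**Figure D1:**
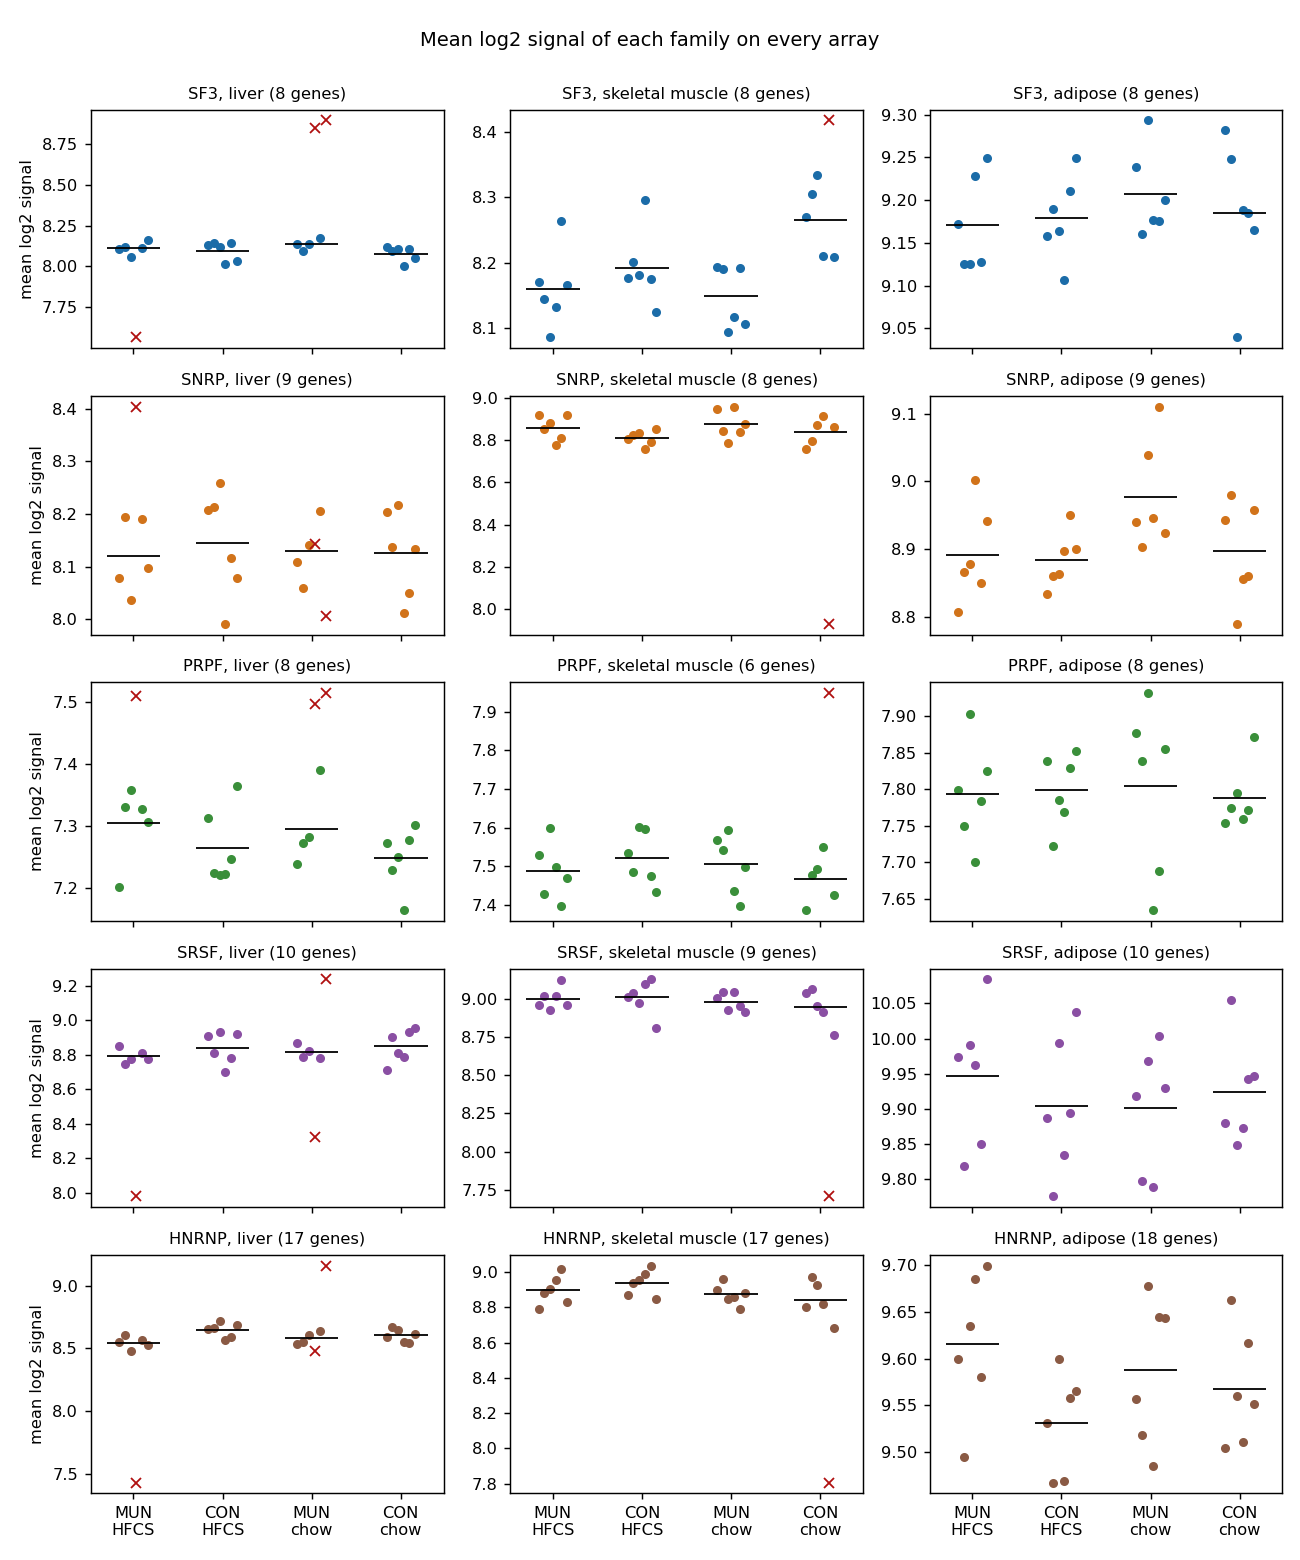
Mean log2 signal of the kept members of each family (rows) on each array of liver, skeletal muscle and adipose (columns), by group in the order MUN HFCS, CON HFCS, MUN chow, CON chow. Points are arrays, red crosses are the 4 weak arrays and black lines are the means of the other arrays, which lie close together within each panel.

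The spread within groups showed the same dependence. The median residual standard deviation of the members in liver was 0.436 log2 units with all arrays and 0.161 without the weak arrays, against 0.273 and 0.159 over all genes. It was largest for SRSF, at 0.725 with all arrays and 0.160 without the weak ones, and for SNRP, at 0.583, and smallest for PRPF, at 0.201. In muscle the members had 0.277 with all arrays and 0.181 without the weak array. In adipose, where no array was weak, both the members and all genes had 0.163.

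MUN was compared with CON on chow to ask which genes differ in the offspring before any challenge. In liver 0 of 52 members were called, that is, had a Benjamini-Hochberg adjusted p under 0.05 over all genes in limma and a fold of at least 1.2, and 0% of the 8685 genes were called. An unadjusted p under 0.05 was reached by 3 members (5.77%), all higher in MUN, against 3.94% of all genes in either direction and 2.75% higher. The difference was above 0 for 34 of 52 members, with a median of 0.086, against 62.3% of all genes and a median of 0.038. All 8 SF3 members (median 0.30) and all 8 PRPF members (median 0.15) had a difference above 0, as did 11 of 17 HNRNP members (0.089), 3 of 9 SNRP members (-0.0093) and 4 of 10 SRSF members (-0.030). Without the 3 weak arrays the difference was above 0 for 27 of 52 members, with a median of 0.0037, against 52.6% of all genes, and the medians were 0.031 for SF3, with 5 of 8 above 0, and 0.038 for PRPF, with 6 of 8. That fit read SF3B6 from another probe (-0.020), which became the brightest without the weak arrays. On the probe used with all arrays SF3B6 had 0.27. With probes chosen anew, the shift of the SF3 members was thus not seen at that size without the arrays that stood apart.

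SF3B6 (p14), the SF3b subunit that contacts the branch-point region, had a log2 signal of 8.76, 8.84 and 10.35 (lowest, median, highest) in MUN livers on chow, against 8.44, 8.55 and 8.74 in CON livers. The groups did not overlap, and the weak arrays held the highest values, 10.35 and 10.18. The difference was 0.73 (SE 0.29, unadjusted p = 0.0197, adjusted p = 0.964). SF3B2, an SF3b subunit that binds upstream of the branch point, had 7.96, 8.11 and 9.53 in MUN livers, against 7.76, 7.95 and 8.14 in CON livers, a difference of 0.42 (SE 0.20, adjusted p = 0.964). HNRNPC, which binds uridine tracts, had 7.67, 8.24 and 9.38 in MUN livers, against 7.65, 7.85 and 8.24 in CON livers, a difference of 0.45 with all arrays and 0.11 without the weak ones. HNRNPAB, a relative of hnRNP A and B proteins, had 9.55, 9.63 and 11.74 in MUN livers, against 9.38, 9.49 and 9.87 in CON livers. Its difference was 0.66 (SE 0.35, unadjusted p = 0.0770), and the weak arrays had 11.74 and 11.22. SRSF2, an exon-binding SR protein, had a median of 9.87 in MUN livers and 9.92 in CON livers, but a minimum of 7.00 in MUN on a weak array, so its difference of -0.54 became 0.037 without the weak arrays. PRPF18, a factor of the second catalytic step, and SNRPA, a protein of the U1 snRNP, differed by 0.21 and 0.17 with all arrays, and by 0.066 and 0.053 without the weak ones.

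Different probes of a gene gave different answers. The brightest SF3B6 probe in liver (ILMN_2182120) gave 0.73 for MUN against CON on chow, whereas the second probe (ILMN_1703720) gave -0.34. Without the weak arrays they gave 0.27 (SE 0.10, unadjusted p = 0.0146, adjusted p = 1.00) and -0.020. Across the 24 liver arrays the log2 signals of the 2 probes had a correlation of -0.115, given as a description of arrays that share animals and processing. The 3 HNRNPAB probes gave 0.66, 0.066 and 0.034 with all arrays, and 0.035, -0.022 and -0.086 without the weak ones. Among the 16 members with several kept probes in liver, all probes had the same sign in 9, and signs were mixed in 7, namely HNRNPH1, HNRNPK, HNRNPM, SF3B6, SNRPB, SNRPC and SNRPF. Which transcripts each probe reads was not tested.

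**Figure D2:**
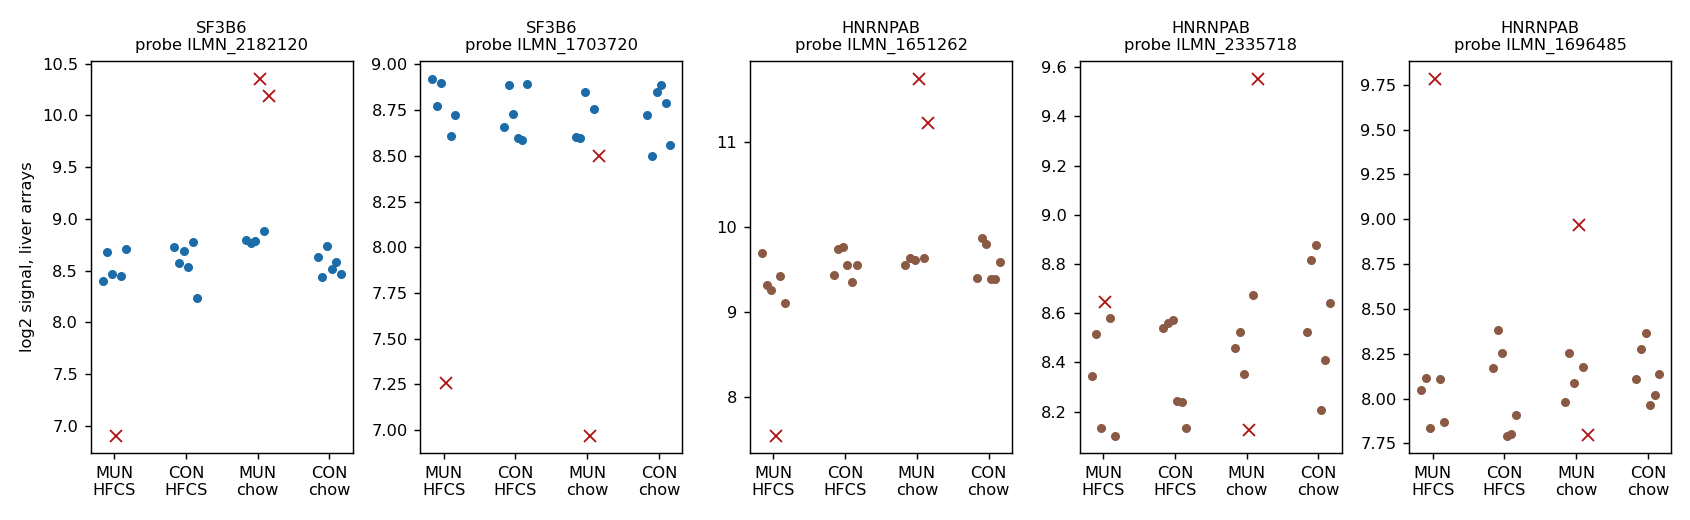
Log2 signal of the 2 SF3B6 probes and the 3 HNRNPAB probes on each liver array, by group in the order MUN HFCS, CON HFCS, MUN chow, CON chow. Crosses are the 3 weak arrays, which carry the largest departures, in different directions for different probes of the same gene.

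HFCS was compared with chow in MUN offspring to ask how they met the dietary mismatch. In liver 0 of 52 members were called, with 0% of all genes called. An unadjusted p under 0.05 was reached by 10 members (19.2%), all lower on HFCS, against 9.78% of all genes in either direction and 8.38% lower. The difference was below 0 for 34 of 52 members, with a median of -0.19, against 51.7% of all genes. These 10 were SF3B6, SF3B2, SF3A3 and SF3B1 of the U2 snRNP, HNRNPAB, HNRNPR and HNRNPC, SNRPB2 (the U2B'' protein), and SRSF9 and SRSF4, with adjusted p from 0.47 to 0.499. Without the weak arrays 0 members had an unadjusted p under 0.05 in limma, against 3.33% of all genes, and 26 of 52 members were below 0 with a median of -0.0012 (51.4% of all genes). That count reads SF3B6 from its second probe, which became the brightest when the weak arrays were left out. On the probes used with all arrays, SF3B6 alone of the 10 had such a p without the weak arrays.

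SF3B6 had 6.91, 8.46 and 8.71 in MUN livers on HFCS, against 8.76, 8.84 and 10.35 on chow, a difference of -1.03 (SE 0.29, unadjusted p = 0.00189, adjusted p = 0.470) with no overlap. On the same probe without the weak arrays the difference was -0.29 (SE 0.10, unadjusted p = 0.0108, adjusted p = 0.999). HNRNPAB had 7.54, 9.29 and 9.69 on HFCS, against 9.55, 9.63 and 11.74 on chow, a difference of -1.17 (SE 0.36, adjusted p = 0.470) that was -0.27 without the weak arrays. The lowest HFCS values of both genes and the highest chow values came from weak arrays. SF3B2 had 7.14, 7.97 and 8.03 on HFCS, against 7.96, 8.11 and 9.53 on chow, a difference of -0.53 (SE 0.20, adjusted p = 0.470).

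**Figure D3:**
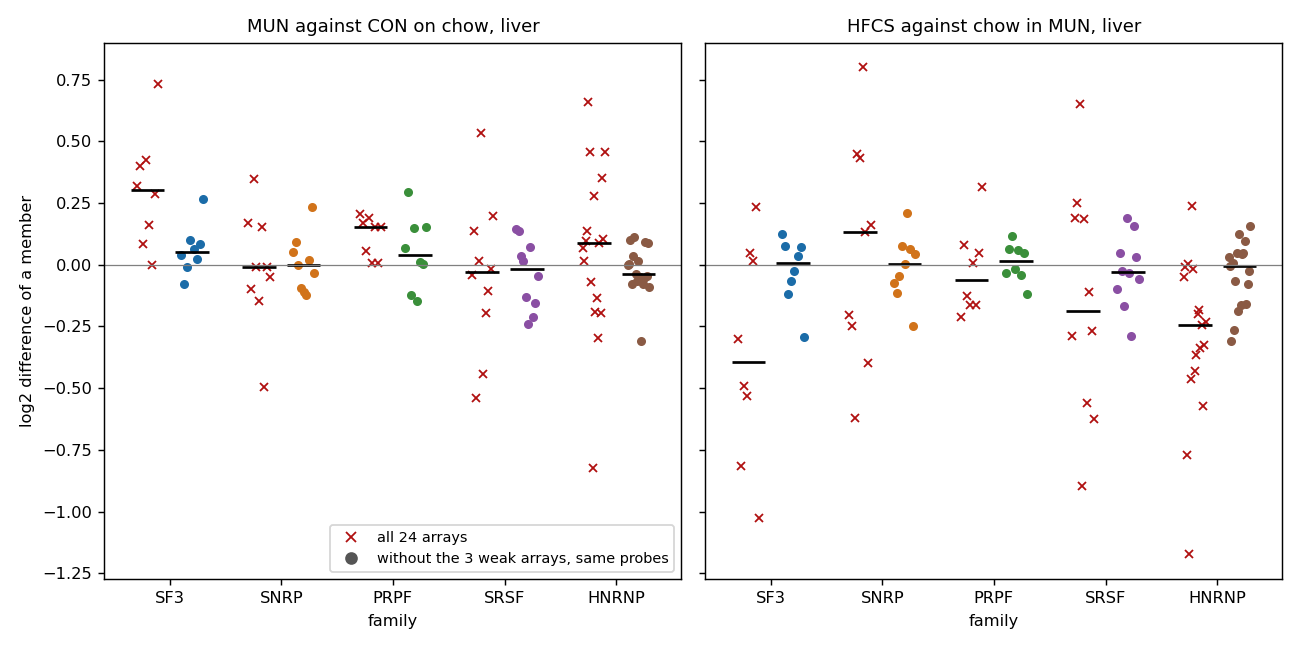
Log2 difference of each kept member in liver, by family, for MUN against CON on chow and for HFCS against chow in MUN. Red crosses are fits on all 24 arrays, dots are fits on the same probes without the 3 weak arrays, and short lines are family medians. The crosses reach from -0.82 to 0.73 for MUN against CON and from -1.17 to 0.80 for HFCS against chow, and the dots from -0.31 to 0.30 and from -0.31 to 0.21.

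In CON livers, which had no weak array, the members differed little between HFCS and chow. None of 52 members was called and 0 reached an unadjusted p under 0.05 in limma, against 0.622% of all genes, and the differences ran from -0.15 to 0.17 with 37 of 52 above 0 (51.5% of all genes). The spread in this fit was estimated over all liver groups, so the weak MUN arrays entered it. On the same probes the SE was 0.35 for HNRNPAB and 0.29 for SF3B6 with all arrays, against 0.11 and 0.090 without the weak ones. The lack of a small p therefore does not show an absence of change in CON livers. SF3B4 (0.079), HNRNPC (0.17) and SRSF8 (-0.15) had the smallest p. The HFCS change in MUN less the HFCS change in CON tests whether the maternal groups responded differently, and 0 of 52 members were called in it (0% of all genes), with 3 at an unadjusted p under 0.05 against 3.32% of all genes. Those were SF3B6 (-1.05), HNRNPAB (-1.17) and HNRNPC (-0.64), and 0 members reached that level in limma without the weak arrays, against 2.76% of all genes. Read on the probe used with all arrays, SF3B6 had -0.32 there (unadjusted p = 0.0302, adjusted p = 0.999).

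On HFCS, most hnRNP genes had a MUN minus CON difference below 0 in liver, with and without the weak array, though none was called. None of 52 members was called (0% of all genes), and 2 had an unadjusted p under 0.05 in limma with all arrays and 7 without the weak ones, against 2.58% and 5.37% of all genes. Differences were below 0 for 34 of 52 members with all arrays and for 33 of 52 without the weak ones, against 46.7% and 50.3% of all genes. Of the 17 HNRNP members 14 were below 0 in both fits, with medians of -0.25 and -0.091. HNRNPA2B1, an A/B-type hnRNP that also guides RNA transport, had 7.60, 10.32 and 11.16 in MUN livers, against 10.40, 10.93 and 11.13 in CON livers, a difference of -0.81 with all arrays and -0.35 (unadjusted p = 0.0421, adjusted p = 0.911) without the weak array. HNRNPH2, which binds G-rich tracts, had 6.73, 7.19 and 7.58 in MUN livers, against 7.32, 7.53 and 7.84 in CON livers, a difference of -0.38 (SE 0.15) with all arrays and -0.32 without the weak one. HNRNPD (AUF1), which binds AU-rich RNA, differed by -0.26 (adjusted p = 0.887) without the weak array.

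SRSF12 and PRPF19 were among the members with differences above 0 in MUN livers on HFCS. SRSF12, an SR protein kept in liver alone, had 6.80, 7.03 and 7.94 in MUN livers on HFCS, against 6.59, 6.70 and 7.03 in CON livers, a difference of 0.41 (SE 0.15, adjusted p = 0.768) with all arrays and 0.27 without the weak array. Its probe was detected on 2 of 6 MUN and 1 of 6 CON arrays on HFCS, and on 8 of 24 liver arrays in all, so most of these values lie under the detection limit. PRPF19, the scaffold of the Prp19 complex, differed by 0.33 (SE 0.13, adjusted p = 0.88) on HFCS and 0.30 on chow without the weak arrays. Over both diets, with the animal as a random block, 0 of 52 members were called for MUN against CON (0% of all genes), and 3 had an unadjusted p under 0.05 against 2.44% of all genes. They were SRSF12 (0.27), HNRNPH2 (-0.26) and HNRNPD (-0.83, and -0.17 without the weak arrays), and PRPF19 had 0.32 (adjusted p = 1.00) without the weak arrays. For HFCS against chow over both maternal groups 0 of 52 were called (0% of all genes) and 2 had an unadjusted p under 0.05, against 2.42% of all genes, SF3B6 (-0.50) and HNRNPAB (-0.59), whereas SNRPB2 had -0.30. On the same probes SF3B6 had -0.13 and HNRNPAB -0.14 without the weak arrays.

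In skeletal muscle, most members with a small p were found for diet in CON animals, and none was called. For HFCS against chow in CON, 0 of 48 members were called, against 0.0745% of 8052 genes, while 9 reached an unadjusted p under 0.05 (18.8%), against 13.3% of all genes. Among them 6 were higher on HFCS and 3 lower, against 8.23% and 5.09% of all genes. Without the weak array 12 members had such a p, against 16.4% of all genes, of which 0.525% were called, again with 0 members. These shares lay near those of all genes. SNRPB, which encodes the core Sm proteins B and B', had 9.05, 9.24 and 9.39 in CON muscle on HFCS, against 9.43, 9.59 and 10.04 on chow, with no overlap and a difference of -0.41 (SE 0.11, unadjusted p = 0.000871, adjusted p = 0.177). Without the weak array its difference was -0.35 (adjusted p = 0.102). SRSF1, the founding SR protein, had 9.29, 9.76 and 9.93 on HFCS, against 8.71, 9.31 and 9.79 on chow, a difference of 0.43 (adjusted p = 0.271).

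HNRNPA2B1 lay at 12.02, 12.07 and 12.31 in CON muscle on HFCS, against 7.68, 11.64 and 11.93 on chow, where 7.68 was the weak array and the other chow arrays had 11.59 to 11.93. The groups did not overlap with or without that array. The difference was 1.05 with all arrays and 0.39 (SE 0.12, unadjusted p = 0.00301, adjusted p = 0.111) without it. SF3B4, the SF3b subunit p49, had 7.46, 7.57 and 7.65 on HFCS, against 7.22, 7.38 and 7.49 on chow, a difference of 0.20 (adjusted p = 0.284). SF3B3 had a log2 signal of 13.88 on the weak array, against 7.44 to 7.89 on the other CON chow arrays, and its difference for HFCS against chow in CON was -1.08 with that array and -0.047 without it.

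In MUN muscle the same dietary comparison gave differences from -0.20 to 0.20, with 0 of 48 members called (0% of all genes) and 0 at an unadjusted p under 0.05 in limma, against 1.4% of all genes. Among the smallest p were SRSF1 (-0.18), SRSF7 (0.16) and SNRPA (0.088). The difference between the maternal groups in their HFCS change was 0.48 for SNRPB (SE 0.15, unadjusted p = 0.00443, adjusted p = 0.653), -0.61 for SRSF1 and -0.77 for HNRNPU, a scaffold-attachment hnRNP. Without the weak array these were 0.42, -0.52 and -0.46. Here 0 of 48 members were called (0% of all genes), and 2 had an unadjusted p under 0.05 with all arrays and 8 without the weak array, against 6.22% and 10.7% of all genes.

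For MUN against CON in muscle 0 of 48 members were called on either diet (0% of all genes on each). On chow 5 members had an unadjusted p under 0.05, against 7.34% of all genes, and these included SRSF3 (0.20), SNRPA (-0.18) and SNRPG (0.60, and 0.25 without the weak array), a core Sm protein. The SRSF3 probe was detected on 6 of 6 MUN and 0 of 6 CON chow arrays, below the lowest detected signal in CON, which allows no fold. Without the weak array 7 of 8 SF3 members were lower in MUN on chow, with a median of -0.16 and 1 of them, SF3B6 (-0.17), at an unadjusted p under 0.05, whereas with it 3 of 8 were lower. Over all genes 51.1% were lower without the weak array and 49% with it. On HFCS 3 members had an unadjusted p under 0.05, against 4.27% of all genes. SNRPB had 9.34, 9.62 and 9.74 in MUN muscle, against 9.05, 9.24 and 9.39 in CON muscle, a difference of 0.33 (unadjusted p = 0.00577, adjusted p = 1.00). SF3B4 (-0.25) and SRSF1 (-0.32) were the other two. Over both diets SF3B4 differed by -0.18 (unadjusted p = 0.00342, adjusted p = 0.833), SNRPA by -0.15 and SRSF3 by 0.15, and for HFCS against chow over both maternal groups SF3B4 had 0.14 and SNRPB -0.17. In these pooled comparisons 0 of 48 members were called (0% of all genes in each), and 4 and 2 had an unadjusted p under 0.05, against 3.43% and 5.27% of all genes.

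Adipose had no weak array, and the smallest p for MUN against CON were on HFCS. There 0 of 53 members were called, against 0.0216% of 9277 genes, and an unadjusted p under 0.05 was reached by 6 (11.3%), against 9.73% of all genes. HNRNPDL, a relative of HNRNPD, had 10.18, 10.29 and 10.47 in MUN, against 9.83, 10.06 and 10.10 in CON, with no overlap and a difference of 0.30 (SE 0.08, adjusted p = 0.156). HNRNPA3 had 8.43, 8.56 and 9.10 in MUN, against 7.98, 8.23 and 8.58 in CON, a difference of 0.44 (SE 0.11, adjusted p = 0.157). Both kept their direction in every fit tried, with adjusted p from 0.115 to 0.354. HNRNPA2B1 (-0.25), SNRPG (-0.24) and HNRNPUL1 (0.22) were further members with such a p. PRPF18 had the smallest, with 7.09, 7.16 and 7.24 in MUN adipose, against 7.32, 7.42 and 7.52 in CON adipose, and a fitted difference of -0.26 (SE 0.06, adjusted p = 0.156). Its probe was detected on 0 of 6 MUN arrays and 5 of 6 CON arrays, and was kept in adipose largely through that CON group. Its difference is therefore a description, also where it enters the count of 6 members above.

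Diet was compared next within each maternal group. In CON adipose HNRNPA3 had 7.98, 8.23 and 8.58 on HFCS, against 8.51, 8.67 and 8.72 on chow, a difference of -0.41 (SE 0.11, unadjusted p = 0.00129, adjusted p = 0.472). PRPF18, undetected on all 6 CON chow arrays, had a fitted difference of 0.18 in CON, and PRPF8, the large catalytic-core protein of the U5 snRNP, had -0.29. For that comparison 0 of 53 members were called (0% of all genes), with 6 at an unadjusted p under 0.05 against 7.58% of all genes. In MUN adipose 0 of 53 were called (0%) and 1 had such a p, against 3.86% of all genes. It was SNRPG, with 9.94, 10.18 and 10.38 on HFCS, against 10.17, 10.41 and 10.59 on chow, a difference of -0.23 (adjusted p = 0.999). All 9 SNRP members were below 0 in that comparison, with a median of -0.076, against 51% of all genes. HNRNPR (0.23) and SRSF2 (0.19) had the next smallest p.

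The HFCS change in MUN less that in CON was -0.40 for SNRPG (SE 0.12, unadjusted p = 0.00221, adjusted p = 1.00), 0.42 for HNRNPA3 and -0.29 for HNRNPA2B1, with 0 of 53 members called (0% of all genes) and 6 at an unadjusted p under 0.05, against 3.86% of all genes. On chow alone 0 of 53 were called for MUN against CON (0%), with 2 at an unadjusted p under 0.05 against 3.51% of all genes, SF3B1 (-0.23), the branch-point-facing core of SF3b, and PRPF8 (-0.25), while PRPF19 had 0.25. Over both diets HNRNPDL differed by 0.19 between MUN and CON (adjusted p = 0.289), PRPF18 by -0.15 and SF3B1 by -0.17. Over both maternal groups SNRPA (-0.14), HNRNPA3 (-0.20) and HNRNPR (0.17) had the smallest p for HFCS against chow. No member was called in either pooled comparison, against 0% and 0.0108% of all genes, and 6 and 3 had an unadjusted p under 0.05, against 7.69% and 7.73% of all genes.

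The sexes were compared over both diets and maternal groups, with the animal as a random block, and here a member was called. SRSF5, an SR protein whose transcript is known to respond to insulin, was lower in female than in male adipose, at a log2 signal of 10.53 ± 0.17 in females and 10.87 ± 0.22 in males (SD, 12 arrays from 6 animals each). The difference was -0.35 (SE 0.07, adjusted p = 0.00844 in limma), and the second SRSF5 probe gave -0.30. On chow females had 10.43, 10.53 and 10.77, against 10.89, 10.99 and 11.21 in males, with no overlap. On HFCS females had 10.13, 10.54 and 10.64, against 10.55, 10.69 and 11.15 in males, which overlapped. In all, 1 of 53 members was called (1.89%), against 0.625% of all genes, and 5 had an unadjusted p under 0.05, against 13.9% of all genes. The others by smallest p were SNRPB2 and HNRNPD (-0.12 each), and the SRSF5 call held in every fit tried, at adjusted p from 0.00359 to 0.0293. In liver and muscle the same probe differed by -0.018 and 0.13 with all arrays, and the second probe by 0.30 and 0.24. The weak arrays of both tissues came from males, whose SD on the first probe in liver was 1.01, against 0.17 in females. Whether the difference varies between tissues was not tested.

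In muscle HNRNPA1, an abundant hnRNP that represses exons, had 7.45, 7.55 and 7.94 in females on chow, against 7.03, 7.29 and 7.52 in males, and on HFCS 7.35, 7.60 and 7.88 in females, against 7.22, 7.30 and 7.40 in males. The sexes overlapped on both diets, and the probe was detected on 19 of 24 muscle arrays. The difference was 0.32 (SE 0.07, adjusted p = 0.0840) with all arrays, where 0 of 48 members were called in limma against 0.0994% of all genes and 4 had an unadjusted p under 0.05 against 9.44% of all genes. Without the weak array, which came from a male, HNRNPA1 differed by 0.33 (adjusted p = 0.0335) and was called, as 0.537% of all genes were. HNRNPUL2 had 0.16 with all arrays and 0.20 (adjusted p = 0.0638) without the weak one, and SF3B2 had 0.14. In liver 0 of 52 members were called, against 0.0345% of all genes, and 1 had an unadjusted p under 0.05, against 7.62% of all genes. It was PRPF4 (-0.16), a tri-snRNP protein. PRPF38A had -0.16 and SNRPF, a core Sm protein, had 0.64 with all arrays and 0.21 without the weak ones.

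**Figure D4:**
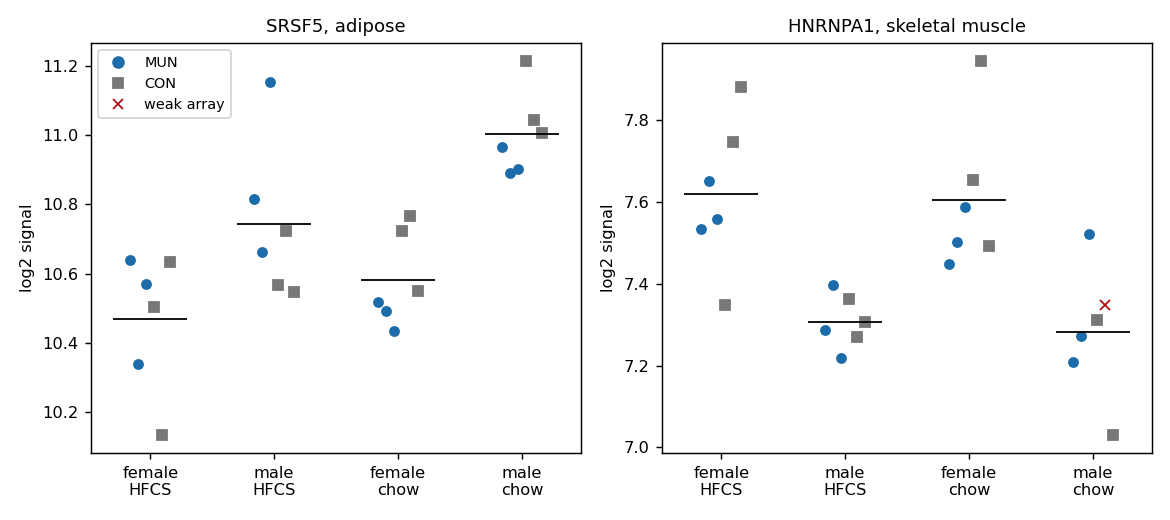
Log2 signal of SRSF5 in adipose and of HNRNPA1 in skeletal muscle, by diet and sex, with females left of males. Circles are MUN and squares CON animals, the cross is the weak muscle array, and lines are means of 6 arrays. SRSF5 is lower in females on both diets, without overlap on chow, and HNRNPA1 is higher in females with overlap.

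Between tissues the families differed far more than between maternal groups or diets. These comparisons used arrays normalized over all 72, members kept in both tissues and the animal as a random block. In adipose against liver 30 of 47 members were called (63.8%), against 50.6% of all genes. Of these 27 were higher in adipose (57.4% of the members, against 29.9% of all genes) and 3 lower (against 20.7%), and the median difference was 0.37, against 0.033 over all genes. In adipose against muscle 30 of 46 were called (65.2%, against 46.7% of all genes), 27 higher (58.7%, against 27.5%) and 3 lower (against 19.1%), with a median of 0.46 against -0.023. In muscle against liver 23 of 44 were called (52.3%, against 53.3%), 10 higher and 13 lower (against 29.6% and 23.7%), with a median of -0.053 against 0.043. Members were thus higher in adipose than in either other tissue more often than genes at large, and near the share of all genes between muscle and liver. Without the weak arrays 29 of 47, 31 of 46 and 21 of 44 were called, against 54.6%, 50% and 57.1% of all genes. Markers of several other cell types were also higher in adipose, though those of macrophages were not higher than in liver. With weak arrays left out, the 6 endothelial genes summed to 6850 to 11493 signal units in adipose, against 1117 to 1714 in liver and 1853 to 3925 in muscle. Fibroblast genes summed to 21649 to 42827 in adipose, against 2621 to 5166 in liver and 3556 to 33418 in muscle, and smooth muscle and pericyte genes to 7954 to 23358, against 808 to 2463 and 1527 to 8673. Erythroid genes summed to 32665 to 81453 in adipose, against 2037 to 12457 in liver and 2017 to 50577 in muscle, and mesothelial genes to 803 to 2744, against 253 to 279 and 266 to 345. Macrophage genes summed to 4836 to 12630 in adipose, against 8893 to 13426 in liver and 1599 to 3164 in muscle. Each sum took only the genes of a list kept in that tissue, so their number could differ between tissues. For mesothelial genes these were 4 in adipose, 2 in liver and 2 in muscle. The part of these cell types in the tissue differences was not tested. In biopsies, fewer cells of a type and less RNA per cell cannot be told apart.

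SR proteins stood highest in adipose against muscle, where 9 of 9 SRSF members were called higher, with a median of 0.80. SRSF9 averaged 10.06 ± 0.15 in adipose and 8.75 ± 0.39 in muscle (SD, 24 arrays each), a difference of 1.31 (SE 0.11, adjusted p = 7.19e-16). SRSF5 averaged 10.30 ± 0.26 in adipose and 9.05 ± 0.48 in muscle, a difference of 1.24 (adjusted p = 1.37e-10), and SRSF6 differed by 1.14. SRSF9 and SRSF5 were also lower in muscle than in liver, at -1.19 and -1.23, and were the only SRSF members called there with all arrays. SRSF6 (-0.30) was also called lower and SRSF4 (0.28) higher in muscle without the weak arrays. Against liver, 5 of 9 SRSF members were called higher in adipose, among them SRSF1 (0.94) and SRSF6 (0.93). They were 5 of 9 without the weak arrays too, with SRSF3 (0.47) called and SRSF2 (0.17, against 0.40 with all arrays) not.

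The hnRNP genes followed a similar order, with 12 of 15 called higher in adipose than in liver and 11 of 17 higher in adipose than in muscle, and none lower with all arrays. HNRNPA2B1 was called lower in adipose than in muscle (-0.50) without the weak arrays. HNRNPH1, which binds G-rich tracts, averaged 10.86 ± 0.21 in adipose and 9.66 ± 0.71 in liver (SD, 24 arrays each), a difference of 1.203 (SE 0.16, adjusted p = 6.80e-10), and 1.19 against muscle. HNRNPD differed by 1.197 between adipose and liver, or 0.86 without the weak arrays. Between muscle and liver the hnRNP genes divided, with 3 called higher in muscle, HNRNPA2B1 (0.86), HNRNPR (0.46) and HNRNPH2 (0.28), and 5 lower, HNRNPAB (-0.53), HNRNPUL1 (-0.40), HNRNPC (-0.39), HNRNPL (-0.34) and HNRNPA3 (-0.30). With those arrays left out 2 were called higher and 4 lower, as HNRNPH2 (0.22), HNRNPA3 (-0.20) and HNRNPUL1 (-0.17) fell under a fold of 1.2 and HNRNPK (-0.49) was called. HNRNPAB was also higher in adipose than in muscle (0.62), and had 0.084 against liver (adjusted p = 0.572), while HNRNPC had -0.12 in adipose against liver (adjusted p = 0.170). The HNRNPA2B1 difference rested on the choice of probe, as the mean of its probes gave -0.20.

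Members of a single complex did not move as a block. In SF3, 5 of 8 members were called higher in adipose than in liver, among them SF3B1 (1.01) and SF3B2 (0.63), with SF3B2 also higher in adipose than in muscle (0.91), whereas SF3B6 was lower in adipose than in liver (-0.29, adjusted p = 0.0130, and -0.47 without the weak arrays). SF3A3, a subunit of the SF3a complex, averaged 9.72 ± 0.13 in adipose and 8.52 ± 0.43 in muscle (SD, 24 arrays each), a difference of 1.202 (adjusted p = 1.93e-11), and had -1.05 in muscle against liver, where it was called lower. SF3B5 had 1.13 in adipose against muscle and -0.70 in muscle against liver, while SF3B3 (0.64) and SF3B1 (0.54) were higher in muscle than in liver. SF3B3 had 0.46 there without the weak arrays, when SF3B6 was called lower in muscle (-0.37) and SF3B2, called with all arrays (-0.28), was not (-0.23).

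The snRNP proteins were the family in which muscle stood high. In muscle against liver 5 of 8 SNRP members were called higher, SNRPN (1.27), SNRPG (0.79), SNRPC (0.53), SNRPB2 (0.40) and SNRPB (0.33), and SNRPD3 lower (-0.43). When the weak arrays were left out 4 were called higher and 0 lower, as SNRPB had 0.19 and SNRPD3 -0.12. SNRPN, the SmN protein of the imprinted Prader-Willi region known for its expression in brain and heart, averaged 8.72 ± 0.50 in muscle and 7.45 ± 0.28 in liver (SD, 24 arrays each, adjusted p = 4.96e-18), and SNRPC, which stabilizes the pairing of the U1 snRNP with the splice site, averaged 9.32 ± 0.18 in muscle and 8.78 ± 0.58 in liver. In adipose against muscle 3 of 7 were called lower, SNRPC (-0.65), SNRPG (-0.38) and SNRPN (-0.36), and SNRPA higher (0.36). In adipose against liver SNRPN (0.91) and SNRPB2 (0.62) were among 4 called higher, and SNRPD2 was lower (-0.39). SNRPG was called with all arrays (0.41) and had 0.25, under a fold of 1.2, without the weak ones. Of the PRPF members, PRPF3, a U4/U6 snRNP protein, was higher in adipose than in liver (0.75) and in muscle (0.69), PRPF8 was lower in adipose than in liver (-0.26, but -0.16 and under a fold of 1.2 without the weak arrays), and PRPF4 (-0.38) and PRPF8 (-0.37) were lower in muscle than in liver. PRPF19 (-0.30) was called lower in adipose than in liver without the weak arrays.

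**Figure D5:**
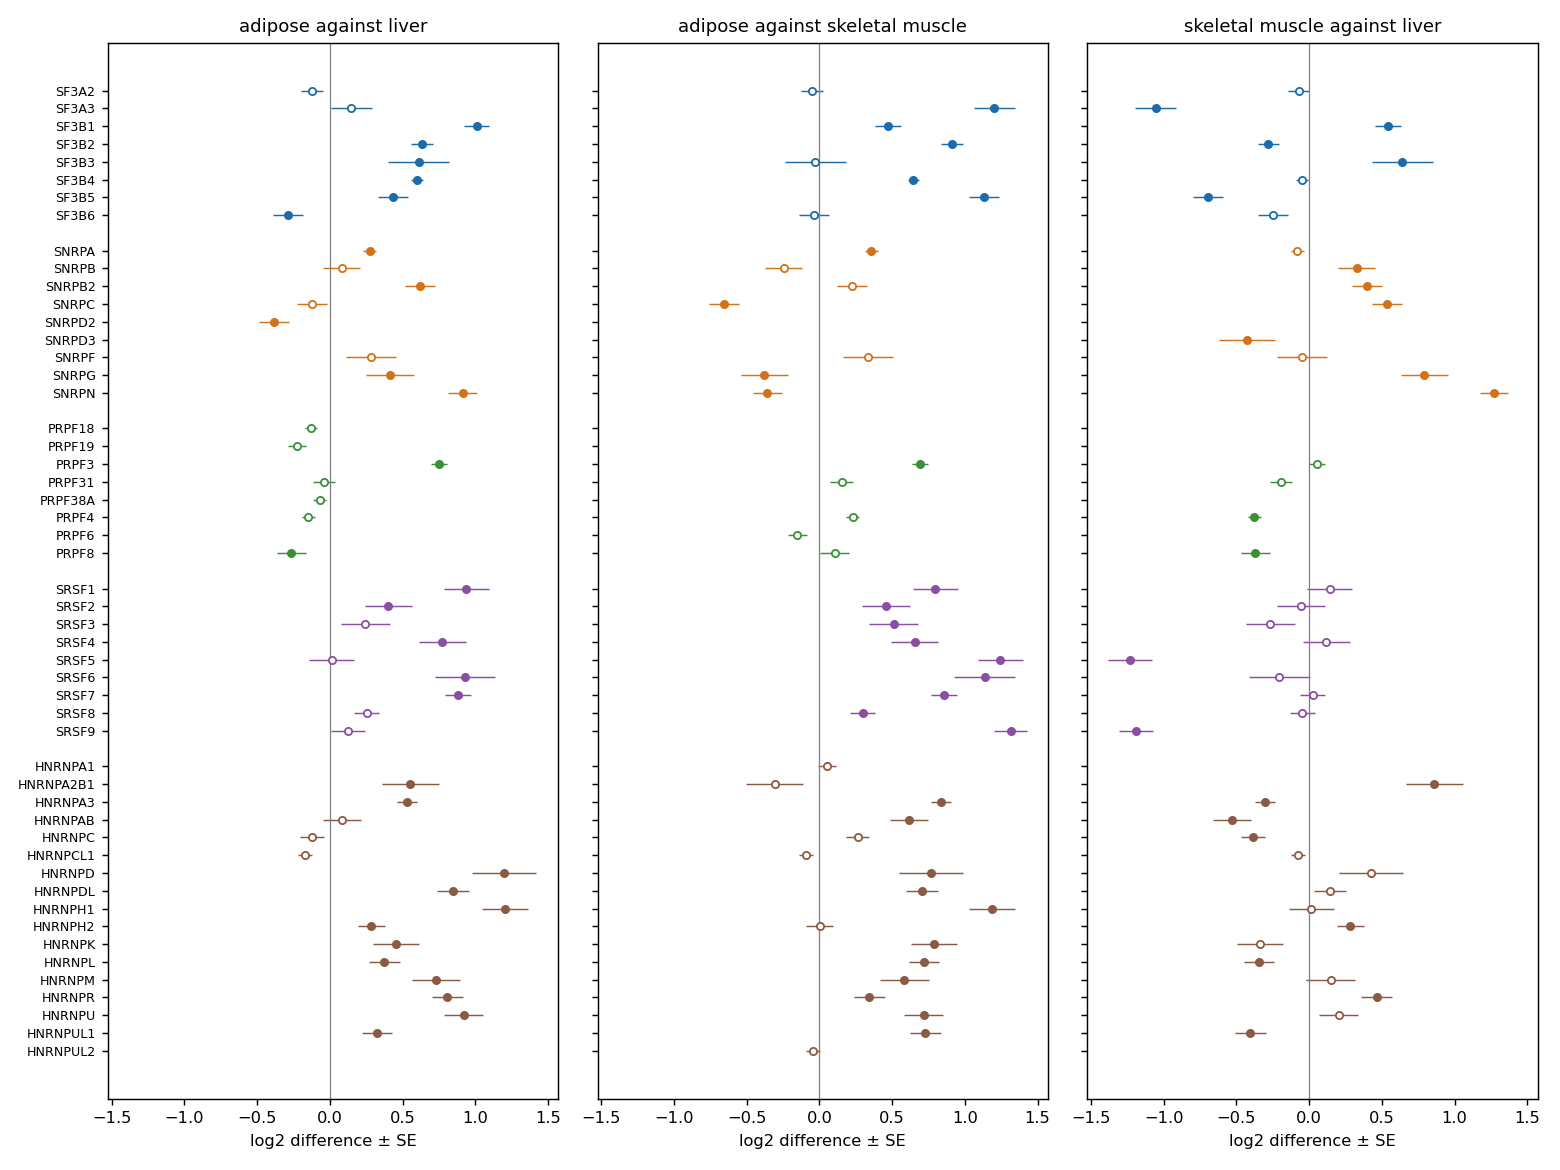
Log2 difference with its standard error for each member kept in both tissues, by family, in the 3 tissue comparisons. Filled points were called and open points were not. SRSF members lie to one side in adipose against muscle, and SNRP members lie on both sides of 0.

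Other spliceosome genes, listed by textbook role (110 genes, 98 with a probe), gave a frame for these counts. Within liver 0 of 78 were called in MUN against CON on chow (0% of all genes). There 53 were above 0 with all arrays and 38 of 77 without the weak ones, against 62.3% and 52.6% of all genes. In HFCS against chow in MUN 13 of 78 had an unadjusted p under 0.05, all lower, against 8.38% of all genes lower. Without the weak arrays 1 of 77 did, against 3.33% of all genes in either direction. In muscle, HFCS against chow in CON gave 62 of 80 above 0 with a median of 0.12, against 50.6% of all genes. There 15 reached an unadjusted p under 0.05, 14 of them higher on HFCS, against 13.3% and 8.23% of all genes. In adipose against liver 34 of 77 were called higher and 5 lower (44.2% and 6.49%, against 29.9% and 20.7% of all genes). The counts were 29 and 17 of 79 in adipose against muscle (36.7% and 21.5%, against 27.5% and 19.1%). They were 24 and 10 of 72 in muscle against liver (33.3% and 13.9%, against 29.6% and 23.7%). Spliceosome genes outside the 5 families thus also had fewer small p in MUN livers without the weak arrays.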

How the data were processed

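Total RNA from 72 biopsies was hybridized to HumanHT-12 v4 BeadChips. The authors extracted signal in GenomeStudio and deposited a table of raw signal intensity with a detection score per probe, and a quantile-normalized table of signal values, used as an alternative. Here log2 intensity was quantile normalized within each tissue without background correction (over all arrays for tissue comparisons). Probes with a score above 0.95 on at least 6 arrays were kept, and the brightest stood for its gene, named by the platform annotation. Groups came from the sample labels. Group means were fitted in limma 3.58.1 (R 4.3.3, statmod 1.5.0). The animal was a random block in sex and tissue comparisons and in MUN against CON over both diets. Diet comparisons, also over both maternal groups, had no block. Calls required a fold of at least 1.2 and, after Benjamini-Hochberg adjustment over all genes, a p under 0.05, the thresholds of the study, which used analysis of variance in Partek. Unadjusted p are given as counts and descriptions. P-values set a difference against the spread between arrays of the same group, estimated jointly over all groups in the fit. A weak array thus entered the spread of every comparison of its tissue, also those without its group. In diet comparisons the p-values do not use the pairing within animals, and the number of animals limits precision. Scripts were tested on simulated data, and figures drawn with matplotlib 3.10.9.

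The members, gene lists and tests were chosen with earlier results of these data known. Members named were SF3B6, SF3B2, HNRNPAB and HNRNPC, the smallest p per family in MUN against CON on chow in liver, up to 3 with the smallest p in each other comparison within a tissue, called members, the 5 largest called tissue differences each way, members kept in at most 1 tissue, and members with probes of mixed sign. The highest and lowest members of a family by level, also in that rule, were not ranked, as levels of different probes were not compared. Further members were named for an unadjusted p under 0.05, or for their values on the weak arrays, after their values were seen. The same animal was biopsied on both diets, and the median correlation of its deviations from the group means was 0.368 in liver, 0.176 in muscle and 0.203 in adipose. Alternatives covered background correction, normalization, the detection filter, the probe rule, array weights, sex, the animal block, the weak arrays and leaving out each animal. No sequences were used.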

Additional observations from a re-analysis of the deposited data

Results flagged for a closer look

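Of 120 group values examined, 19 held a sample far from the other 5 of its group (by the ratio of its gap to the group's range, Dixon's test), where chance gives about 1 in 20, and 16 of the 19 were on weak arrays. In skeletal muscle CON replicate 5 on chow (a weak array) had the lowest mean of the HNRNP members (7.81), of all members (7.93), of the SNRP members (7.93) and of the SRSF members (7.71), the highest mean of the PRPF members (7.95), and the lowest SF3B6 (7.60). In liver MUN replicate 6 on chow (weak) had the highest mean of the HNRNP members (9.16) and of all members (8.68), and that of MUN replicate 4 on chow had the highest SF3B2 (9.53). MUN replicate 4 on HFCS (also weak) had the lowest mean of the HNRNP members (7.43), of all members (7.74), of the SF3 members (7.57) and of the SRSF members (7.98), and the lowest HNRNPAB (7.54), SF3B2 (7.14) and SF3B6 (6.91). The remaining 3 were on other arrays. In adipose CON replicate 6 on chow had the highest mean of the PRPF members (7.87, against 7.75 to 7.79 in the others) and the highest HNRNPC (8.95), and in liver CON replicate 4 on chow had the lowest mean of all members (8.20, against 8.27 to 8.31).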

How the results depend on the processing

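The count of members called kept within 1.5 times its value in 632 of 643 alternatives. Most counts within tissues were 0 to begin with, where few or no genes were called, and 0 against 0 was taken as the same. Their agreement therefore says little. In female against male muscle the count was 1 (HNRNPA1) with array quality weights and without the weak array under either probe rule. With probes detected on all arrays of both tissues it was 0 in muscle against liver, 4 in adipose against liver and 1 in adipose against muscle, where few genes could be tested, and with a fold of at least 2 it was 4, 3 and 6. In CON animals on chow alone it was 13 in muscle against liver and 15 in adipose against liver, with fewer arrays. For single genes, 2083 values kept their direction and side of the threshold, 30 were no longer called, 3 became called and signs turned for 16. PRPF18 in adipose, MUN against CON on HFCS, had -0.51 after normexp background correction. For SF3B6 in liver, leaving out each replicate gave -0.062 (without MUN replicate 4) to 0.83 for MUN against CON on chow, -1.20 to 0.13 (without MUN replicate 4) for HFCS against chow in MUN, -1.23 to 0.13 for the difference between those changes, and -0.59 to 0.070 over both maternal groups. The brightest probe was chosen anew in each fit. Without MUN replicate 4 the second SF3B6 probe became the brightest, so the values without that replicate come from that probe. It was also the brightest without the weak arrays, where the same differences were -0.020, 0.093, 0.086 and 0.050. SRSF2 had 0.037 for MUN against CON on chow without the weak arrays under either probe rule. With probes detected on all arrays, HNRNPAB had -0.10 for MUN against CON on chow, and SNRPB in muscle had 0.015 for HFCS against chow in CON and 0.045 over both maternal groups. SNRPB2 in liver had 0.018 for HFCS against chow with array quality weights, HNRNPA2B1 had -0.20 in muscle against liver with the mean of its probes, and PRPF8 had 0.071 in adipose against liver in CON animals on chow. Apart from the change of SF3B6 probe, the causes were not tested. With the animal as a fixed replicate block for the comparisons of diet, 0 members were called in each, as without it.

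Groups of 6 limit which differences pass the test, and in liver the MUN groups had 4 and 5 arrays once the weak ones were left out. Fits without the weak arrays and the fit without the muscle array high in ALB were in part chosen after seeing the data.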
